A study of Mus musculus with 9 samples.

Results

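The cytosolic ribosomal protein genes are described here in cultured mouse hepatic stellate cells of 3 genotypes. Members are the rows of the gene table whose symbol begins with Rpl, Rps or Rplp and a digit, together with Rpsa. Kinases of the Rps6k family and numbered pseudogenes were left out. This gave 84 of 14020 rows, 50 of the large (60S) subunit family and 34 of the small (40S) subunit family. Of these, 77 encode standard subunits, and with 3 that carry other names, such as Fau and Rack1, they make up 80 standard ribosomal proteins. The other 7 are the paralogs or copies Rpl7l1, Rpl22l1, Rpl36al, Rpl37rt, Rps4l and Rps27l, and Rps19bp1, which encodes a binding partner of RPS19 and is no ribosomal protein.

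Stellate cells store vitamin A in the quiescent liver and become contractile, matrix-producing myofibroblasts when activated. The cells came from liver and were grown in serum-containing medium for 4 days under basal conditions. One group of 3 libraries was wild type (WT). Another carried a knock-out of Sqstm1, the gene of the autophagy receptor p62, and the remaining group was labelled Nbr1-Sqstm1 double-knock-out, so that both mutant groups lack p62 by their labels. NBR1 is a related autophagy receptor. The series text instead speaks of an Nbr1 knock-out beside wild type, which differs from these labels. How the alleles were made, and whether replicates are separate animals or cultures, was not stated in the labels, although the series text calls the replicates biological. A p-value here covers only the variation among these 9 libraries, which may be technical.

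Each ribosome joins a 40S subunit, which reads the messenger RNA, to a 60S subunit, which forms peptide bonds. Ribosomal proteins are made in matched amounts from many unlinked genes, and their messenger RNAs are usually among the most abundant of a growing cell. Most begin with a C followed by an unbroken run of C and T bases, the 5′ terminal oligopyrimidine (TOP) tract, through which the kinase complex mTORC1 and the protein LARP1 control their translation. Autophagy bears on the same proteins from the other side, since starved cells can degrade ribosomes.

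Runs of C and T bases were looked for near annotated transcription starts, without asking for a C at the first base. RefSeq (GRCm38.p6) promoter sequences matched 63 of the 84 members. A run of at least 8 bases that are each C or T, with at least part of it within 10 bases of an annotated start on the gene's own strand, was found in 29 of them (46.0%), against 16.1% of 26962 other genes. The same search on the opposite strand gave 6.35% and 17.9%. Below are the windows of 41 bases around the start for 4 members on which the later comparisons turn, with the start as base 21 and any such run in capitals. Rpl35a (chr16:33056462-33056502, plus strand, the start with a run among its 3 annotated ones) and Rpl39 (chrX:37085202-37085242, minus strand) hold a run. Rpl11 (chr4:136053373-136053413, minus strand) and Rpl27 (chr11:101442225-101442265, plus strand) hold none that reaches within 10 bases of the annotated start. The Rpl39 window also opens with such a run, and the Rpl11 window ends in one, both farther from the start and left in lower case.
Rpl35a: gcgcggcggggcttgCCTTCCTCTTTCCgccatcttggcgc
Rpl39: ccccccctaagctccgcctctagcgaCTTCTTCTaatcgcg
Rpl11: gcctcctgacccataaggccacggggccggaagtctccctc
Rpl27: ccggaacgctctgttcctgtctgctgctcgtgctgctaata
Annotated starts can be off by some bases, so neither a run near one nor a missing run shows how the messenger RNA begins.

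The table rested on 819677 to 1467793 reads per library. Sqstm1 itself stood at 223 to 255 normalized counts in WT, 30.8 to 86.8 in Sqstm1 KO and 25.8 to 59.9 in the double knock-out. Nbr1 stood at 92.7 to 106, 72.2 to 88.9 and 79.9 to 111, so expression gave no check of the Nbr1 label. Of 12 stellate cell markers looked up, 8 had a row among those analysed. Their summed value was 1159 to 1236 in WT, 4415 to 5191 in Sqstm1 KO and 3416 to 5681 in the double knock-out. Collagens and Acta2 made up most of the sums. Against WT, limma called 4 of the 8 higher in Sqstm1 KO, and for the double knock-out 6, while Pdgfrb had means of 55.9, 52.9 and 66.2 in the 3 groups. Of 9 macrophage markers looked up, 4 had a row, with sums of 20.3 to 35.4, 8.68 to 12.3 and 14.3 to 29.3. Cd14, with means of 17.6, 1.29 and 11.1, accounted for the lower sums in Sqstm1 KO, as Cd68 had means of 4.28, 3.98 and 4.04 and Csf1r and Mpeg1 were no lower there than in WT. Endothelial cells were represented by Stab2 alone, at 2.17 to 16.3 over the 9 libraries, and bile duct cells by Sox9, at 0 to 6.78. None of the 7 hepatocyte and 5 lymphocyte markers looked up had a row among those analysed. The part of these markers in the results that follow was not tested.

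Ribosomal protein genes took a share of all reads that is small for messenger RNA sequencing of cultured cells. It was 0.931%, 1.20% and 1.48% in WT replicates 1, 2 and 3, a mean of 1.20% ± 0.273 (SD, n = 3). In Sqstm1 KO it was 1.16%, 1.38% and 1.91% (1.48% ± 0.389), and in the double knock-out 1.03%, 1.19% and 1.06% (1.10% ± 0.0818). The ranges of the groups overlapped, and Sqstm1 KO replicate 3 had the largest share of the 9. In bulk samples fewer cells of a type and less RNA per cell cannot be told apart. Divided by annotated exon length, the mean level of the members over the 9 libraries had a median of 48.0 normalized counts per kb, against 4.34 over all genes with a length. In all, 79 members were above that second value, and 1 was among the 100 highest genes per kb.

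Per kb, Rps3a1 was highest (615), with Rpl8 (329) and Rpl41 (313) also near the top. Rps19bp1 (1.87), Rps10 (3.36), Rpl34 (3.48), Rpl37rt (3.75) and Rps4l (4.08) were lowest. All but Rps3a1, Rps19bp1, Rpl37rt and Rps4l of these are named after their values were seen. Rpl37rt and Rps4l are annotated as transcribed processed pseudogenes. Rps27l, a copy of Rps27 known as a p53 target, stood at 299 per kb and Rps27 itself at 24.8. Small nucleolar RNA genes lie inside 30 members, on the same strand. The median level per kb of those 30 was 69.9, and that of the other 54 was 41.2. In 19 members an exon is overlapped by one of an opposite-strand gene, and 61 members have at least 1 numbered pseudogene in the annotation. How the counting treated strand and multi-mapping is unstated, so a level can hold or lack reads of such partners. Among the 100 genes with the highest mean value, 71 have an opposite-strand exon overlap (71.0%), against 36.5% of all matched genes. Whether the count was made from the antisense strand was not tested, and if it was, the levels of all members, and folds drawn from them, would not measure their messenger RNA as such.

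Of the 84 members, 79 passed the filter (10 or more normalized counts in 3 or more libraries). The other 5 were Rpl37rt, Rpl38, Rps19bp1, Rps29 and Rps4l. All folds that follow are differences of log2(value + 1), tested with limma over the 9 libraries and adjusted over 10118 genes. Each pair of comparisons shares a group of libraries, so their fold changes are not independent.

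**Figure D1:**
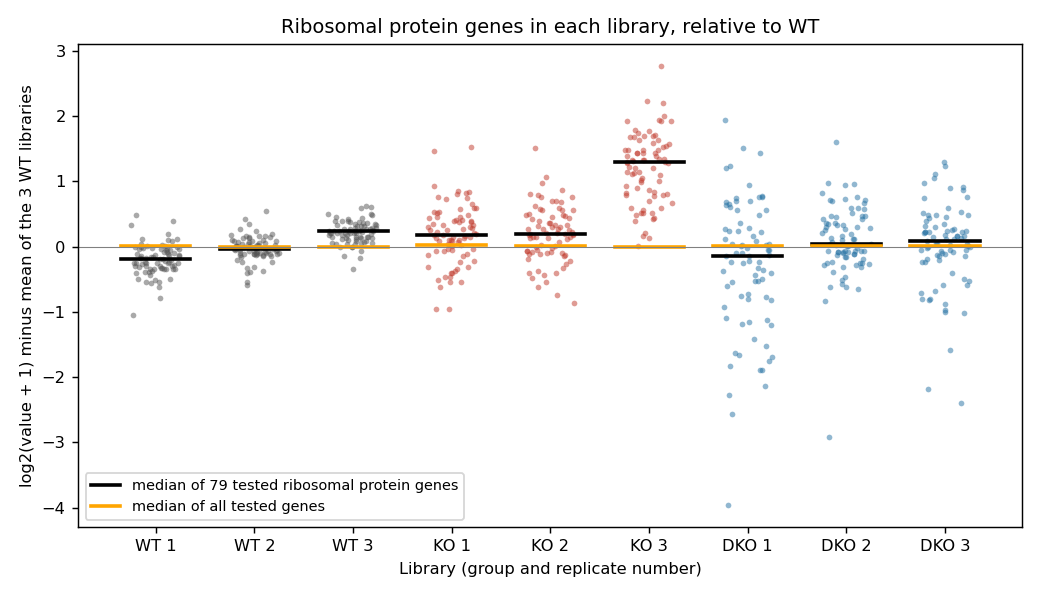
Each point is 1 of the 79 tested ribosomal protein genes in 1 library, as log2(value + 1) minus the mean of the 3 WT libraries, for WT, Sqstm1 KO (KO) and the double knock-out (DKO). Black bars are medians of these genes and orange bars medians of all 10118 tested genes. In KO 3 the median was 1.30, and in the other libraries it lay between -0.20 and 0.23.

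Sqstm1 KO replicate 3 stood apart in these genes, though not in them alone. Summed values of several related gene lists, given further on, were highest in it too. Relative to the WT mean, its median over the 79 tested members was 1.30 on the log2 scale, and all 79 were above the WT mean. Sqstm1 KO replicates 1 and 2 had medians of 0.19 and 0.19, inside the WT range of -0.20 to 0.23. The double knock-out libraries had medians of -0.14, 0.05 and 0.09. Over all tested genes the same medians lay between -0.01 and 0.02. Replicate 3 of Sqstm1 KO had the highest value of the 9 libraries for 72 of the 79 members (91.1%), against 24.3% of all tested genes. Against the mean of replicates 1 and 2 of its own group, 78 of 79 members were higher in it, with a median difference of 1.05 and a range of -0.41 to 1.92. The exception was Rpl29. Over all tested genes, 5034 of 10118 were higher in replicate 3, with a median difference of 0. Differences above 1 made up 55.7% of members and 13.6% of all tested genes, and those below -1 made up 0% and 17.0%. That library also had reads in the fewest genes (12673, against 13349 to 13794), and 18.5% of its reads fell in the 10 genes with most reads, against 9.74% to 13.9% elsewhere. The part of these features in the result was not tested.

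**Figure D2:**
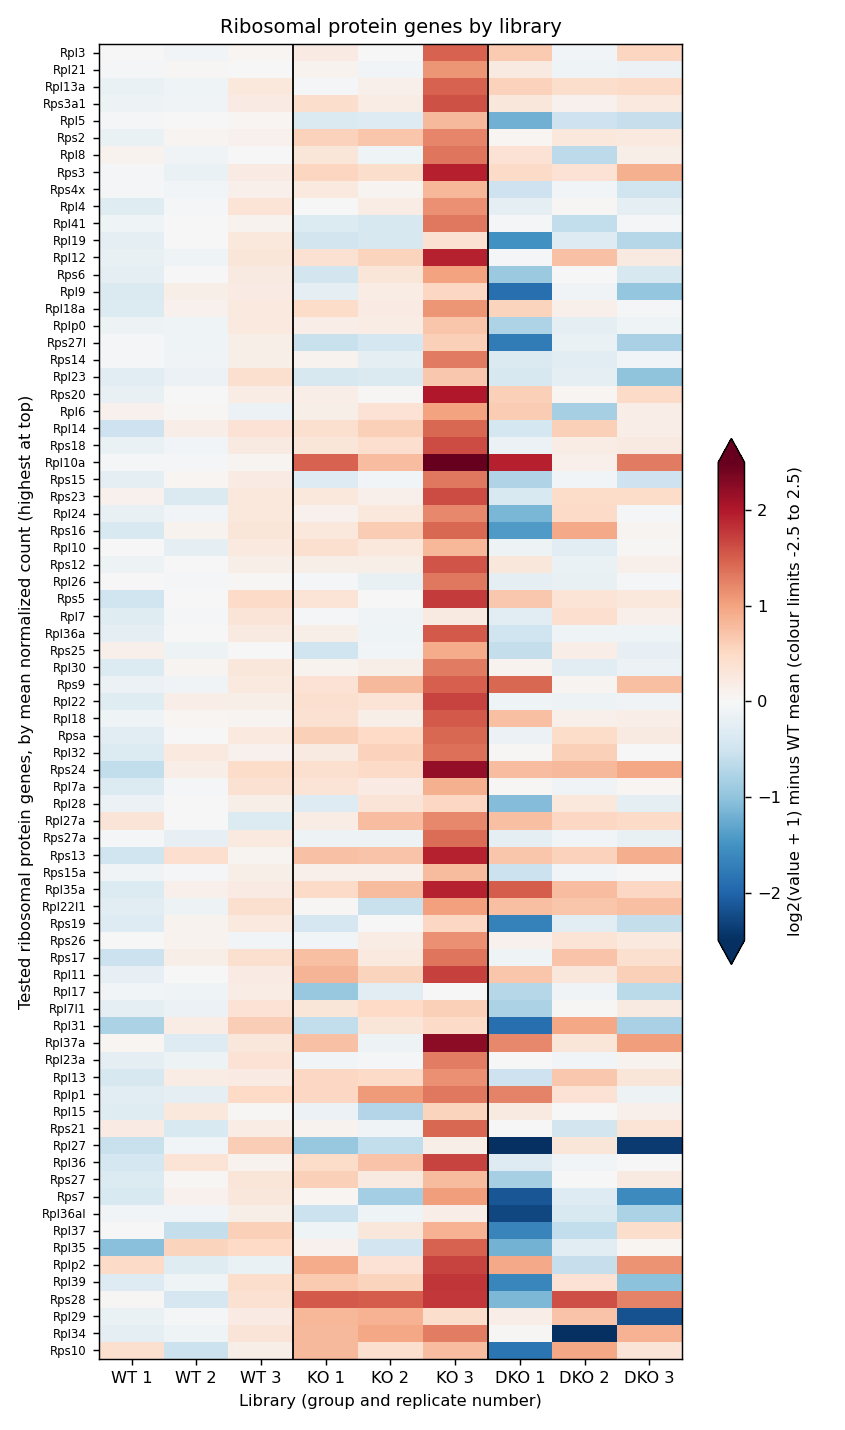
Rows are tested ribosomal protein genes (not all are drawn) by mean normalized count, columns the 9 libraries, and colour the log2(value + 1) minus the WT mean (red higher, blue lower). The column KO 3 is red in nearly every row, and DKO 1 holds both blue rows such as Rpl27 and red ones such as Rpl10a.

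The likeness between members was lower without that library. Across the 9 libraries, the median Pearson correlation over the 3081 pairs of tested members was 0.61, and 93.5% of pairs were positive. Over the 8 libraries without Sqstm1 KO replicate 3 the median was 0.20, with 62.1% positive. All pairs share the libraries and their size factors, and the library left out was picked because most members were highest in it. A lower correlation without it follows largely from that choice, and pairs of other genes were not measured. These values are therefore descriptions only.

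Sqstm1 KO was first compared with WT. No member was called, while 72 of 79 fold changes were positive. The median was 0.52, against -0.01 over all tested genes, with 0.50 for the 48 tested genes of the 60S family and 0.66 for the 31 of the 40S family. By limma 0 of 79 members passed an adjusted p of 0.05, where 5.61% of all tested genes did (2.43% higher and 3.18% lower). The unadjusted p was under 0.05 for 21 members, all higher, beside 9.04% of all genes in that direction and 10.3% in the other. edgeR called 2 and DESeq2 called 5, all higher, with backgrounds of 6.35% and 7.93%. All 3 values of Sqstm1 KO lay above all 3 of WT for 23 members (29.1%), beside 12.4% of all genes, and below them for 0, beside 13.6%. Without Sqstm1 KO replicate 3 the median was 0.16, 54 of 78 fold changes were positive, and 0 members were called, beside 6.54% of all tested genes. The count of 0 became 2 when Sqstm1 KO replicate 2 was left out (Rpl10a and Rpl11), or the double knock-out's replicate 1 (Rpl10a and Rps28), and 1 without its replicate 2 (Rpl10a). Rps28 was named with its values known. In these fits 5.58%, 5.45% and 5.17% of all tested genes were called. With scaling to total reads the median over all genes moved to -0.21, and the members' median of 0.31 lay 0.53 above it.

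**Figure D3:**
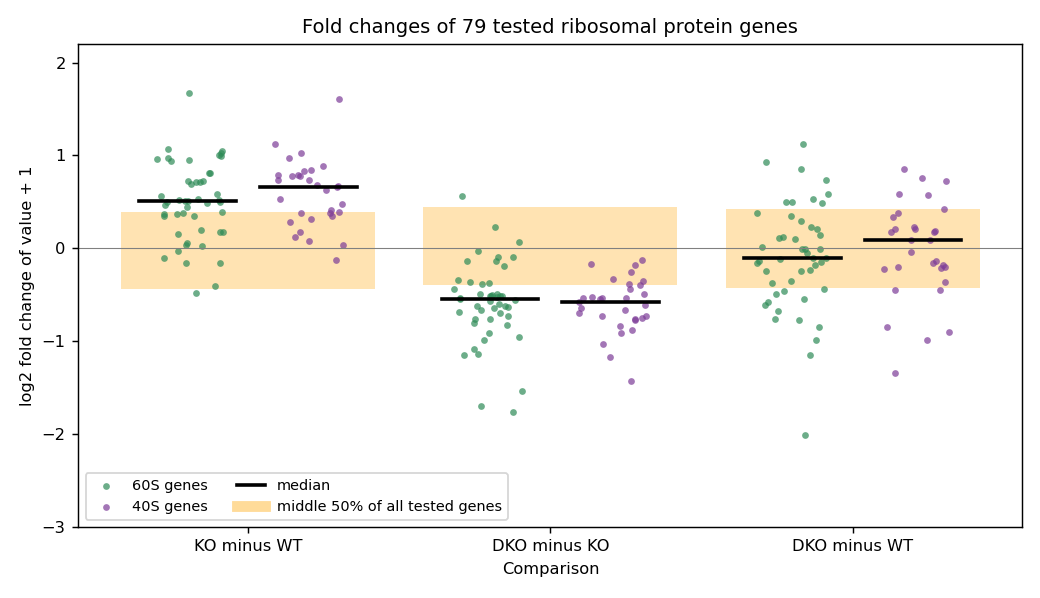
Points are log2 fold changes of value + 1 for the 79 tested genes of the 60S (green) and 40S (purple) families in the 3 comparisons, black bars are medians, and orange boxes hold the middle 50% of all 10118 tested genes. Points lie mostly above 0 for KO minus WT, below 0 for DKO minus KO, and on both sides for DKO minus WT.

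Rpl10a, a 60S protein of the L1 stalk (chromosome 17, 28328471 to 28331033, GRCm38), was the member with the smallest p. It stood at 64.0, 63.3 and 67.9 normalized counts in WT replicates 1, 2 and 3, and at 182, 111 and 450 in Sqstm1 KO. In the double knock-out it was 252, 70.8 and 162. Every mutant library was above every WT library. Against WT its log2 fold change was 1.67 in Sqstm1 KO (SE 0.48, limma adjusted p = 0.0572). It was called by edgeR (adjusted p = 0.0203) and DESeq2 (adjusted p = 0.00305), and its adjusted p ran from 0.00305 to 0.181 over 20 alternatives, of which 10 called it. Single libraries decided it, as it was called without Sqstm1 KO replicate 2 (adjusted p = 0.0178), double knock-out replicate 1 (0.0489) or double knock-out replicate 2 (0.0354). Its exons overlap CT025652.2 on the other strand.

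Rpl11 is a 60S protein that, with RPL5 and the 5S ribosomal RNA, forms the particle that can bind and inhibit MDM2. It was 35.4, 40.7 and 47.3 in WT and 74.5, 60.9 and 137 in Sqstm1 KO, groups that did not overlap (log2 fold change 1.04, SE 0.31, limma adjusted p = 0.0692). It was called by edgeR (adjusted p = 0.0449), by DESeq2 (0.0309) and without Sqstm1 KO replicate 2 (0.0373), in a range of 0.0309 to 0.229 over 20 alternatives. Its partner Rpl5 was 618, 627 and 659 in WT and 492, 504 and 1109 in Sqstm1 KO, so that only replicate 3 was above WT (log2 fold change 0.04, SE 0.33, adjusted p = 0.968).

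Among 40S members, Rps2, which lies near the messenger RNA entry site, was 320, 379 and 387 in WT and 541, 581 and 843 in Sqstm1 KO (log2 fold change 0.83, SE 0.25, limma adjusted p = 0.0767). Rps13 was 32.7, 62.5 and 48.5 against 77.6, 76.3 and 179 (1.12, SE 0.35, adjusted p = 0.0798). The groups did not overlap for either gene. Rpsa, which encodes the 40S protein also known as the laminin receptor, was 57.2, 69.3 and 81.9 against 104, 97.4 and 188 (adjusted p = 0.13). In these 3 genes Sqstm1 KO replicates 1 and 2 lay above WT as well, so the order did not rest on replicate 3. The size did in part. From replicates 1 and 2 the log2 difference from WT was 0.63 (Rps2), 0.72 (Rps13) and 0.54 (Rpsa). With replicate 3 it was 0.83, 1.12 and 0.84, and without replicate 3 none of these genes was called. DESeq2 called Rps2 (adjusted p = 0.0149), Rps13 (0.0355) and Rps3 (0.0412), the last named after its values were seen. On the 60S side Rpl35a was 31.3, 43.7 and 46.1 in WT and 56.1, 69.8 and 154 in Sqstm1 KO (1.07, SE 0.38, limma adjusted p = 0.126).

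The members with the highest values before division by length were each highest in Sqstm1 KO replicate 3. Rpl3, which lies by the peptidyl transferase centre, was 712, 676 and 730 in WT, 811, 709 and 1970 in Sqstm1 KO, with 1115, 674 and 1023 in the double knock-out. Rpl21 was 576, 601 and 582 in WT, 627, 558 and 1259 in Sqstm1 KO, with 685, 542 and 530 in the double knock-out. Rpl13a was 411, 427 and 555 in WT, 450, 503 and 1282 in Sqstm1 KO, with 684, 621 and 643 in the double knock-out. For Rpl13a every double knock-out library lay above every WT library. None of these 3 was called in any comparison (limma adjusted p of 0.435 or more).

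In the stalk that recruits elongation factors, Rplp0 was 217, 221 and 281 in WT, 268, 270 and 385 in Sqstm1 KO, with 139, 202 and 219 in the double knock-out. The double knock-out lay below Sqstm1 KO in every library (log2 fold change -0.73, SE 0.27, limma adjusted p = 0.147). Rplp1 was 21.8, 22.6 and 38.2 in WT and 38.8, 56.8 and 68.3 in Sqstm1 KO (0.97, SE 0.38, adjusted p = 0.172). Rplp2 had means of 12.8 ± 4.28, 27.7 ± 13.3 and 20.3 ± 10.8 in WT, Sqstm1 KO and double knock-out (SD, n = 3). Over the 3 stalk genes, no comparison was called.

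Rps4l (chromosome 6, 148354656 to 148355598, GRCm38) had 0 reads in the 3 WT libraries. It is annotated as a transcribed processed pseudogene, a copy of Rps4x, whose 40S protein is encoded on the X chromosome. Its 30 reads over the Sqstm1 KO group gave 11.2, 9.74 and 7.59 normalized counts, and 5 reads over the double knock-out gave 0, 2.28 and 3.82. Against a floor of 3 counts over the WT group, a value of 0.808, Sqstm1 KO was at least 11.8-fold higher. The gene did not pass the filter. With no filter limma gave an adjusted p of 0.00758 for Sqstm1 KO against WT, and 0.00254 to 0.0361 when each library was left out in turn. For the double knock-out the adjusted p with no filter was 0.1 against Sqstm1 KO and 0.294 against WT. Replicate 3, the highest Sqstm1 KO library for nearly all other members, was the lowest of its group here. Rps4x stood at 383, 380 and 435 in WT, 474, 420 and 708 in Sqstm1 KO, with 276, 380 and 281 in the double knock-out. Reads of near-identical copies can be split or lost in counting, so the source of the Rps4l reads is uncertain.

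**Figure D4:**
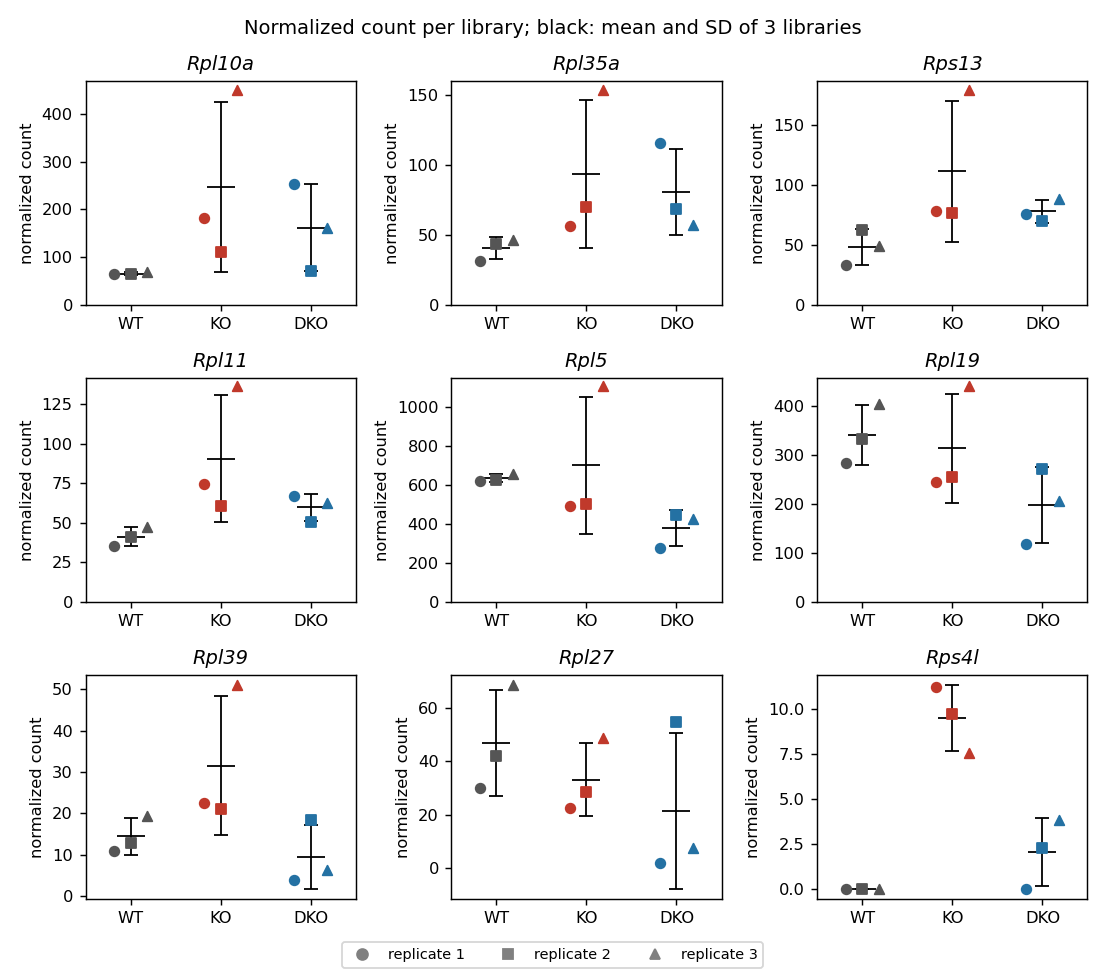
Normalized counts of 9 members in each library of WT, Sqstm1 KO (KO) and the double knock-out (DKO), with the mean and SD of 3 libraries in black and the replicate number as the marker shape. Rpl10a is above WT in all 6 mutant libraries, Rps4l is at 0 in the 3 WT libraries, and Rpl27 ranges from 1.91 to 54.8 within DKO.

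The double knock-out was next compared with Sqstm1 KO, groups that differ in Nbr1 by their labels. Of 79 fold changes, 76 were negative, including all 31 of the 40S family, with a median of -0.55 against -0.01 over all genes. Limma called 0 members, beside 5.93% of all tested genes (4.42% higher and 1.51% lower), and edgeR called 0 (6.07%), while DESeq2 called 1, Rpl39 (7.08%). The unadjusted limma p was under 0.05 for 14 members, all lower, beside 7.83% of all genes in that direction and 11% in the other. For 15 members (19.0%) all double knock-out values lay below all those of Sqstm1 KO, beside 9.47% of all genes, and for 0 above, beside 11.5%. Without Sqstm1 KO replicate 3 the median was -0.24, with 21 of 78 fold changes positive, and 1 member was called higher, beside 7.67% of all tested genes called. That member was Rpl22l1 (log2 fold change 0.99, adjusted p = 0.0377, in a range of 0.0377 to 0.77 over 20 alternatives). Without double knock-out replicate 2, 5 members were called lower, among them Rpl9, Rpl27, Rpl39 and Rps7. This was 6.41% of members, beside 4.31% of all tested genes called in either direction.

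Rpl39, a small protein of the 60S exit tunnel, had the smallest p. It was 22.5, 21.1 and 51.0 in Sqstm1 KO, with 3.82, 18.3 and 6.37 in the double knock-out, with no overlap between them, and 10.9, 12.8 and 19.4 in WT. The log2 fold change between the mutant groups was -1.77 (SE 0.52, limma adjusted p = 0.0635). DESeq2 gave an adjusted p of 0.0473, and without double knock-out replicate 2 it was 0.0174, in a range of 0.0174 to 0.297 over 19 alternatives. Rpl36 was 28.6, 34.1 and 68.3 in Sqstm1 KO, with 16.3, 19.4 and 20.4 in the double knock-out (-1.09, SE 0.37, adjusted p = 0.119). Its double knock-out values lay inside the WT range of 15.0 to 26.4. Rps4x was lower in each double knock-out library than in any of Sqstm1 KO (-0.75, SE 0.27, adjusted p = 0.135).

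Double knock-out replicate 1 held the lowest value of the 9 libraries for 32 of the 79 members (40.5%), against 15.9% of all tested genes. WT replicate 1 held it for 27 (34.2%), against 11.3%. Compared with double knock-out replicate 2, 18 members were lower in replicate 1 by more than 1 on the log2 scale (22.8%, against 11.3% of all genes), and 6 were higher by more than 1 (7.59%, against 10.5%). Rpl27, a 60S protein, varied most. Its values in the double knock-out were 1.91, 54.8 and 7.64, against 30.0, 42.2 and 68.5 in WT and 22.5, 28.4 and 48.8 in Sqstm1 KO. Replicate 2 lay inside the WT range and the other double knock-out libraries lay below every other library.

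Rpl9 showed the same order, with 75.5, 266 and 144 in the double knock-out, against 219 to 329 in WT and 240 to 403 in Sqstm1 KO. Rps7 was 5.74, 22.8 and 8.92, against 21.8 to 35.2 and 15.4 to 60.7. The SD of log2 values within the double knock-out exceeded 1 for 10 members (12.7%, against 6.01% of all genes). It did so for 5 members within Sqstm1 KO (6.33%, against 11.6%) and for 0 within WT (against 1.54%). The median SD of members was 0.38 in the double knock-out, beside 0.39 over all genes. In Sqstm1 KO the median SD was 0.63, against 0.48 over all genes.

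Against WT the double knock-out showed no common shift. The fold changes split into 35 positive and 44 negative, with a median of -0.05 against -0.02 over all genes. That median was 0.01 without WT replicate 3 or without double knock-out replicate 1. Limma, edgeR and DESeq2 each called 0 members, beside 6.42% (4.11% higher and 2.31% lower), 7.26% and 8.70% of all tested genes. The unadjusted limma p was under 0.05 for 2 members in the higher direction and 8 in the lower, beside 11.3% and 10.2% of all genes. Groups did not overlap for 12 members higher (15.2%) and 5 lower (6.33%), beside 15.7% and 15.5%.

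The variance pooled over the 3 groups includes Sqstm1 KO replicate 3, and without that library 6 members (7.69%) were called in this comparison, beside 14.1% of all tested genes. Rpl10a (log2 fold change 1.12, adjusted p = 0.0385), Rpl35a (0.93, adjusted p = 0.0357) and Rps24 were higher in the double knock-out, and Rpl5 (-0.77, adjusted p = 0.0289), Rpl19 (-0.85, adjusted p = 0.0422) and Rps7 (-1.35, adjusted p = 0.0487) were lower. Without double knock-out replicate 2 3 other members were called, all lower, among them Rpl9 and Rpl27 (3.85%, beside 5.14% of all tested genes). With all 9 libraries the limma adjusted p was 0.19 for Rpl10a, 0.166 for Rpl35a, 0.194 for Rpl5, 0.153 for Rpl19 and 0.148 for Rps7. Rpl35a stood at 116, 68.5 and 57.3 in the double knock-out, each above the WT maximum of 46.1. Rps24, named after its values were seen, stood at 84.1, 86.8 and 96.8, against 31.3 to 67.3 in WT. Rpl5 stood at 274, 444 and 423, each below the WT minimum of 618, and Rpl19 at 117, 271 and 205, below the WT minimum of 283. Rpl11, the other 5S particle gene, was 66.9, 50.2 and 62.4 against a WT maximum of 47.3 (0.53, adjusted p = 0.354).

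No tested paralog passed with all 9 libraries. Rpl22l1, a paralog of Rpl22, was 91.8, 87.9 and 91.7 in the double knock-out and 44.9, 49.0 and 70.9 in WT, without overlap (log2 fold change 0.74, SE 0.35, limma adjusted p = 0.247). Rpl22 was 70.8, 69.6 and 71.3 in the double knock-out, inside the WT range of 61.3 to 85.1 (-0.10, SE 0.33, adjusted p = 0.896). Rpl36al was 5.74, 24.0 and 17.8 against 30.0, 30.1 and 35.2 in WT (-1.15, SE 0.44, adjusted p = 0.143), where Rpl36a was 67.9, 89.0 and 89.2 against 80.3, 97.2 and 113 (-0.23, SE 0.36, adjusted p = 0.764). Rps27l was 84.1, 256 and 163 against 278, 264 and 317 (-0.90, SE 0.38, adjusted p = 0.189), and Rps27 12.4, 22.8 and 26.7 against 17.7, 23.4 and 28.5 (-0.20, SE 0.36, adjusted p = 0.798). Differences between the members of a pair were not tested. Rpl7l1, a paralog of Rpl7, had adjusted p-values of 0.279 or more in the 3 comparisons, and Rpl7 of 0.874 or more. Of the untested rows, Rps29 was 1.36, 1.51 and 2.43 in WT and 6.69, 6.85 and 7.64 in the double knock-out, with no filter an adjusted p of 0.122. Rpl37rt stood at 0.753 to 1.36 in WT and 4.08 to 5.68 in Sqstm1 KO (adjusted p = 0.27), and Rps19bp1 at 6.51 or less in all 9 libraries.

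The standard ribosomal proteins outside the naming rule were not called either. Fau, whose product is cleaved to the 40S protein S30, was 125, 143 and 192 in WT, 197, 148 and 459 in Sqstm1 KO, with 140, 174 and 203 in the double knock-out. Rack1, a signalling scaffold on the 40S head, was 155, 194 and 234, then 184, 241 and 450, then 133, 200 and 162. Sqstm1 KO replicate 3 was the highest library for both.

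Genes that build or regulate ribosomes were taken from 9 further lists. For 18 other TOP messenger RNAs, such as those of elongation factors, the median log2 fold change was 0.15 in Sqstm1 KO against WT, -0.21 between the mutant groups and -0.02 in the double knock-out against WT, with 0 called in each. Translation initiation factors had 0 of 31 called in each comparison (medians 0.20, -0.47 and -0.22). Ribosomal RNA synthesis had 0 of 14 called (0.42, -0.29 and 0.22), mTORC1 and TOP control 0 of 25 (0.33, -0.34 and -0.20) and the MDM2 surveillance list 0 of 10 (-0.47, 0.25 and 0.08). At an unadjusted limma p under 0.05 these 5 lists held 3, 3, 2, 6 and 0 genes in the first comparison, 1, 7, 0, 6 and 2 in the second and 2, 4, 0, 5 and 0 in the third, where 19.4%, 18.8% and 21.4% of all tested genes passed. Of 63 tested assembly factors, 3 rose in Sqstm1 KO and 0 fell (median 0.29), beside 2.43% and 3.18% of all genes, while the double knock-out had 1 lower against Sqstm1 KO (-0.29) and 1 higher against WT (-0.03). Mitochondrial ribosomal proteins, which serve a separate ribosome, had 0, 0 and 1 of 49 called (0.11, -0.26 and -0.04). The 7 tested snoRNA host genes had 0, 1 and 0 called (0.29, -0.31 and 0.31), and the 21 of ribosome quality control 0, 1 and 1 (0.00, -0.15 and -0.15). Of all tested genes, limma called 5.61%, 5.93% and 6.42% in the 3 comparisons, so single calls in these lists do not mark the lists out. At an unadjusted p under 0.05 these last 4 lists held 12, 5, 2 and 3 genes in the first comparison, 9, 2, 1 and 4 in the second and 13, 6, 2 and 3 in the third. Summed values of the other TOP messenger RNAs were 10352 in Sqstm1 KO replicate 3, against 6119 to 7770 in the other libraries. Initiation factors had 7848 there (4718 to 5573 elsewhere), assembly factors 6702 (4197 to 5228) and mTORC1 and TOP control 2638 (1363 to 1794). That library also had the highest sum, by less, for ribosomal RNA synthesis, mitochondrial ribosomal proteins and quality control. For snoRNA hosts it did not, and for the MDM2 list its sum was the lowest (267).

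Gtpbp4, a GTPase of 60S assembly, was 28.6, 41.4 and 38.8 in WT, 82.7, 76.3 and 91.1 in Sqstm1 KO, with 84.1, 81.1 and 65.0 in the double knock-out. It rose in Sqstm1 KO (log2 fold change 1.19, SE 0.26, limma adjusted p = 0.0143), a call lost without WT replicates 1 or 2 (adjusted p up to 0.081). Against WT it was higher in the double knock-out too (1.07, adjusted p = 0.0238), which was lost without any 1 WT or double knock-out library (up to 0.0958). Its exons overlap those of Gm48649 on the other strand. The nucleolar helicase Ddx18 rose from 8.27 ± 2.52 in WT to 26.7 ± 8.73 in Sqstm1 KO (SD, n = 3, adjusted p = 0.0325), lost without any 1 WT library or Sqstm1 KO replicates 2 or 3 (up to 0.141). Nop16, named after its values were seen, rose from 7.31 ± 3.12 to 21.8 ± 3.60 (adjusted p = 0.0447), lost without any library other than double knock-out replicate 1 (up to 0.181).

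Between the mutant groups, the 40S assembly factor Nop14, which overlaps Gm15522 on the other strand, was lower in the double knock-out (77.7 ± 11.2 to 32.9 ± 15.9, adjusted p = 0.0373), a call kept only on leaving out replicate 3 of Sqstm1 KO or replicate 2 of the double knock-out (otherwise up to 0.149). Snhg8, a host of snoRNAs, was lower as well (42.1 ± 23.9 to 12.1 ± 6.36, adjusted p = 0.0404), kept only without replicate 2 of either mutant group (otherwise up to 0.162). Ankzf1, which releases peptides from stalled 60S subunits, was higher (108 ± 25.1 to 216 ± 26.2, adjusted p = 0.0372), kept only without WT replicate 1 or Sqstm1 KO replicates 1 or 3 (otherwise up to 0.185), and its exons overlap those of Atg9a and Glb1l on the other strand. Against WT, Rnf10, a ubiquitin ligase of 40S proteins, was lower in the double knock-out (69.3 ± 4.00 to 35.3 ± 4.28, adjusted p = 0.0354), kept only without Sqstm1 KO replicates 2 or 3 or double knock-out replicate 2 (otherwise up to 0.159). Mrpl19 of the mitochondrial 39S subunit, which overlaps Gcfc2 on the other strand, was higher (155 ± 35.5 to 340 ± 83.5, adjusted p = 0.0482), kept only without Sqstm1 KO replicates 2 or 3 (otherwise up to 0.226).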

How the data were processed

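RNA of 9 libraries (3 groups of 3) was analysed from 1 gene table, with 0 value columns left unused. Its deposited signal values are reads per gene, scaled by the authors with a single size factor for each library. STAR, DESeq2 and the build GRCm39 are named in the submitters' processing notes, without versions, and the sources used here do not give the counter, strand setting or annotation. All 121126 values above 0 were whole multiples of the library's smallest value (100%, tolerance 0.01), so whole reads were recovered and used for edgeR, DESeq2 and read shares. Floors cover counting error only, since reads carry no molecular identifiers.

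The test was limma with a mean-variance trend on log2(value + 1), 3 groups, no covariate, for genes reaching 10 in 3 or more libraries, two-sided, Benjamini-Hochberg over all 10118, threshold 0.05, 14.0 degrees of freedom. An exact permutation test of 3 against 3 cannot go below 0.1. The fit was tested on simulated counts with a constant dispersion of 0.05 for all genes. These held no deviating library, so that case was not tested. Members, lists and naming rule were chosen with earlier results of these data known. Genes described in full were the 6 members with the smallest p in each comparison, paralogs with their partners, the 4 highest and 4 lowest members by mean, stalk and 5S particle members, and called genes of the lists (up to 2 per direction). GENCODE M21 (GRCm38) gave exon lengths and overlaps by symbol (88.2% matched). Some items are not reported here. Alternatives were other pseudocounts, filters, scalings, tests, a replicate block and leaving out libraries. The software was limma 3.58.1, DESeq2 1.42.0 and edgeR 4.0.16 under R 4.3.3, and Python 3.11.15.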

Additional observations from a re-analysis of the deposited data

How the results depend on the processing

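Counts of called members were 0 in the 3 comparisons and moved under some settings. In Sqstm1 KO against WT, 1 member was called with a pseudocount of 4 or quantile normalization, 2 with no filter or edgeR, 5 with DESeq2, and 3 with the replicate block (Rpl10a, Rpl11 and Rps13). In that order, these fits called 6.02%, 6.8%, 4.64%, 6.35%, 7.93% and 6.82% of all tested genes. Leaving out 1 library gave 0 to 2 members, beside 2.27% to 6.54% of all tested genes. Between the mutant groups 1 was called with quantile normalization or DESeq2, 2 with the replicate block (Rpl9 and Rpl39), and 0 to 5 with 1 library left out. Of all tested genes 6.19%, 7.08%, 6.64% and 2.47% to 7.67% were called in these fits. In the double knock-out against WT 1 was called with quantile normalization, 3 with only the 2 groups compared, 0 with the replicate block, and 0 to 6 with 1 library left out. The shares of all tested genes called there were 9.07%, 13.2%, 7.45% and 2.55% to 14.1%. Without both Sqstm1 KO replicate 3 and double knock-out replicate 1, a setting chosen after seeing the data, the counts were 2, 0 and 1, and the medians 0.16, -0.13 and 0.01. In that setting 8.61%, 6.23% and 11.5% of all tested genes were called. With 1 library left out the median log2 fold change ran from 0.16 to 0.70, from -0.77 to -0.24 and from -0.12 to 0.01. Over members with no opposite-strand overlap the medians were 0.53, -0.55 and -0.07, and the read share in the double knock-out was 0.892%. With 1 library left out, all genes called ran from 226 to 651 (568 with all 9), from 243 to 764 (600) and from 251 to 1409 (650), and with a filter at 50 they were 290, 291 and 360. With only the 2 groups compared they were 394, 351 and 1260, and without both doubted libraries 831, 601 and 1107. Of 1836 alternative values for 93 results of single members, 37 were called and none of those turned in sign. Whether same-numbered libraries share more than a number was not stated in the labels. The correlations of their deviations ran from -0.12 to 0.18, and 6 of 9 libraries correlated best with their own number. With the replicate block, all genes called were 690, 672 and 754. A shared preparation was not tested. Depth limits members of low value most: Rps4l rests on 30 reads in Sqstm1 KO.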

Other observations

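Among the rows that the choice of members left out were 3 numbered pseudogenes. Rpl27a-ps4 had normalized counts of 20.4, 14.3 and 10.3 (WT), 14.3, 11.4 and 7.59 (Sqstm1 KO) and 9.56, 5.71 and 5.09 (double knock-out). Its parent Rpl27a stood at 72.2, 58.0 and 44.9, then 65.3, 98.2 and 133, then 97.5, 82.2 and 80.2, so that Sqstm1 KO replicate 3, the highest library for the parent, was among the lower ones for the pseudogene. Rps18-ps4 stood at 21.7 in Sqstm1 KO replicate 3 and at 4.24 to 10.2 in the other 8 libraries, the same highest library as for Rps18 (409, against 117 to 175). Rpl14-ps1 lay between 0 and 8.68. Its highest value was also in Sqstm1 KO replicate 3, not far above the 7.65 of double knock-out replicate 1. Rpl14 was highest in that Sqstm1 KO library too (405, against 104 to 225). The parents are named after their values were seen. No test was run on these rows.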
